A study of Mus musculus with 2 samples.

Results

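The Hox genes were taken as a group by their names on the array. They comprise every non-control spot whose gene name was Hox followed by a cluster letter a, b, c or d and a paralog number, which gave 39 genes and 52 probes out of 37008 gene names and 56603 probes. The Hoxa cluster has 11 of the genes, Hoxb has 10, and Hoxc and Hoxd have 9 each. The probes lie on chromosome 6 for Hoxa, 11 for Hoxb, 15 for Hoxc and 2 for Hoxd. By paralog number, 12 genes are anterior (1 to 4), 11 are central (5 to 8) and 16 are posterior (9 to 13). The study measured RNA of lymph node cells sorted for absence of CD45, the pan-leukocyte surface antigen encoded by Ptprc, on 2 one-color Agilent arrays. One array held cells of normal female C57BL/6 mice without a tumor. The other held cells from the tumor-draining nodes of female C57BL/6 mice, taken 2 weeks after 4T1 cells were placed in the mammary gland. The 4T1 line comes from a mammary carcinoma and is generally described as of BALB/c origin, a strain other than the labelled host. The labels name neither the lymph nodes taken nor the number of mice behind a sample. A difference in the body site of the nodes therefore cannot be told apart from an effect of the tumor. The file headers give both arrays the same software release and protocol, and whether they shared a scan was not checked. Each group has a single array, so no difference below has a replicate check or a p-value, and precision is limited by that number.

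Hox genes encode transcription factors that bind DNA through a homeodomain and give cells along the head-to-tail axis of the embryo their regional identity. In mammals they lie in 4 clusters, and genes near the anterior end of a cluster are active earlier and further forward in the body than genes near the posterior end. Connective tissue cells such as fibroblasts are known to keep part of this code in the adult, so that their Hox expression reflects the body site they came from. Hox proteins bind DNA together with cofactors of the TALE class, among them the Pbx and Meis proteins, and the silent part of each cluster is known to be held down by Polycomb complexes.

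Of the 52 probes, 5 were found, by translating the probe letters, to read codons of conserved parts of the protein. Of these, 4 are shown because they represent the range of outcomes, with 2 of them lower on the tumor-draining array and 2 not above background on either array. Capitals mark the codons of the recognition helix, the part of the homeodomain that lies in the DNA groove, or, for Hoxa6, of the hexapeptide, the short motif through which Hox proteins hold Pbx. Probe sequences and positions are those of the array files (mm9), 5′ to 3′, on the minus strand for Hoxa6 and on the plus strand for the others.
Hoxa6, chr6:52158194-52158253: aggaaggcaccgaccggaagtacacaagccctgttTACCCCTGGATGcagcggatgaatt
Hoxd10, chr2:74532280-74532339: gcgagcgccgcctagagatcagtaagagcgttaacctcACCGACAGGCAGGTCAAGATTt
Hoxc11, chr15:102787015-102787074: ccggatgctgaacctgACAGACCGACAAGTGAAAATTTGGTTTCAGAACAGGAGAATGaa
Hoxc12, chr15:102768819-102768878: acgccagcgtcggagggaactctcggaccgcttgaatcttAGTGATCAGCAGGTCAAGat
The Hoxa6 probe gave a signal of 39.2 in the normal sample and 14.4 in the tumor-draining sample, and that of Hoxd10 gave 80.8 and 9.78. The probes of Hoxc11 (1.58 and 1.77) and Hoxc12 (1.59 and 1.73) were not well above background on either array. The longest run of identical bases between probes of any pair of Hox genes was 12, between Hoxc12 and Hoxd10, in probes of 60 bases.

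Which Hox genes gave a signal followed paralog number. Signals are background-subtracted and linear, and a gene counts as above background where the scanner software marked its brightest probe as well above background. In all, 28 of the 39 genes were above background on at least 1 array, 24 of them on both, 4 on the normal array only and none on the tumor-draining array only. Over all 37008 gene names, 24656 were above background on at least 1 array. Of these, 22152 were so on both, 1528 on the normal array only and 976 on the tumor-draining array only. All 22 genes with paralog numbers 4 to 10 were above background on at least 1 array, and none of the 9 genes with numbers 11 to 13 was above background on either. The 9 are Hoxa11, Hoxa13, Hoxb13, Hoxc11, Hoxc12, Hoxc13, Hoxd11, Hoxd12 and Hoxd13, the set known for patterning the distal limb, the genital region and the tail. Hoxd13, which patterns digits, came closest, at 7.68 on the normal array against a lowest signal of 7.72 among probes well above background there. At the anterior end, Hoxb1, a hindbrain gene, and Hoxd1 were not above background either. In a bulk sample, fewer cells of a type and less RNA per cell cannot be told apart.

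**Figure D1:**
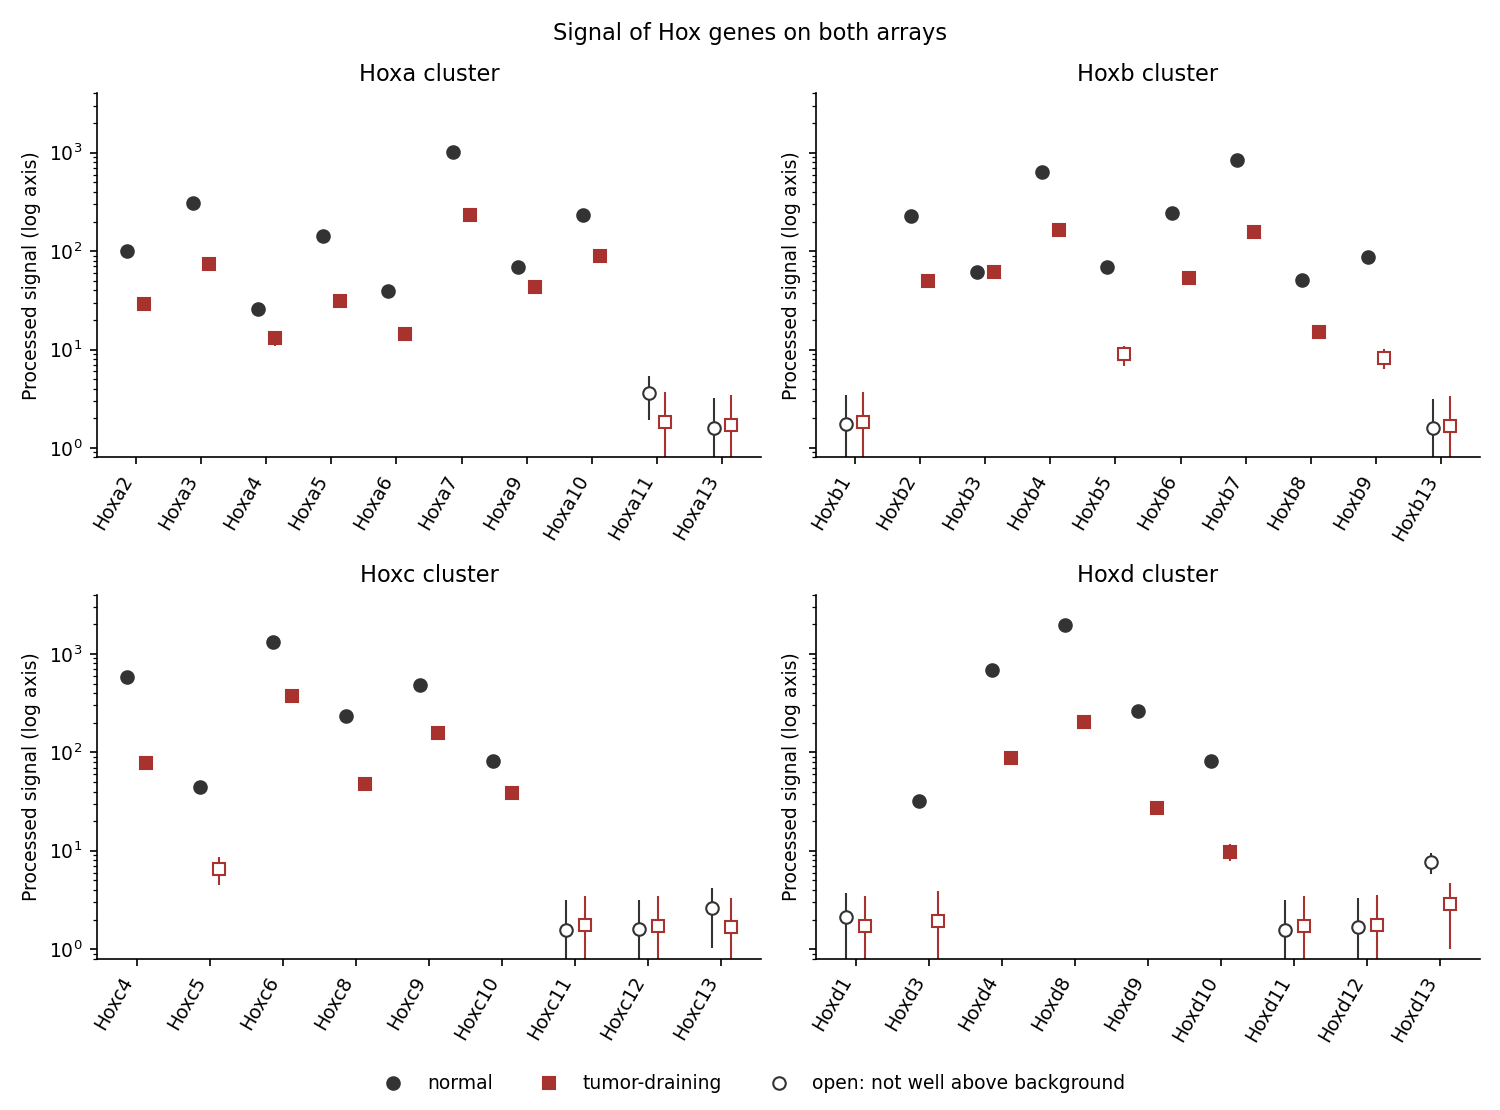
Processed signal of the probe that represents a Hox gene (vertical log axis, arbitrary units of the scanner) on the normal array (dark circles) and the tumor-draining array (red squares), with one panel per cluster and genes ordered by paralog number. Error bars are the software's error of a single spot and are cut off at the lower edge of the axis; open symbols are not well above background. Every gene with paralog number 4 to 10 has a filled symbol on the normal array, no gene with number 11 to 13 has one on either array, and the red squares lie below the dark circles in 22 of the 23 genes shown that are filled on both.

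The Hox genes that could be measured were lower on the tumor-draining array. Signals were scaled to each array's 75th percentile before the log2 difference was taken as tumor-draining minus normal. At a size rule of 2-fold, 25 of the 28 genes were lower, none was higher and 3 were within 2-fold (Hoxa4, Hoxa9 and Hoxb3). The 25 include the 4 genes above background on the normal array only, each counted by the bound described below. Over all 24656 genes above background on at least 1 array, counted in the same way, the share lower was 16.5% and the share higher was 11.5%. The median difference of the 24 Hox genes above background on both arrays was -1.95, against 0.12 over all 22152 genes of that kind, and 23 of the 24 were below 0 (22 with spike-in scaling, 24 with loess normalization) against 43.6% of all genes. The software's error for a single spot gave the differences of these 24 genes errors of 0.20 to 0.32 on the log2 scale, each resting on 1 spot per array. Among probes printed at least 10 times on the array, the SD of the difference between arrays had a median of 0.25 at mean signals of 10 to 100 (7 probes) and 0.093 at 100 to 1000 (11 probes). Neither error covers the difference between mice or between sorts.

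Most markers of stromal cells were lower as well, while most lymphocyte and pan-leukocyte genes were higher. Of the markers listed for each cell type, 12 of 13 for fibroblastic reticular cells were at least 2-fold lower, and their summed signal was 335196 in the normal and 120056 in the tumor-draining sample. Blood endothelial markers were lower in 12 of 12 cases, with sums of 56892 and 7078, and so were all 8 lymphatic endothelial markers and 8 of 9 pericyte and smooth muscle markers. The sums were 43588 and 8823 for lymphatic endothelium and 50666 and 16596 for pericytes and smooth muscle. All 8 pan-leukocyte genes, all 9 T cell genes found and 7 of 9 B cell genes were at least 2-fold higher, and the sums were 33156 and 107233, 14512 and 66551, and 27436 and 64882. All 8 myeloid genes were above background, 1 of them at least 2-fold higher, with sums of 19033 and 20168. Of 8 epithelial and mammary carcinoma genes, 2 were at least 2-fold higher, Krt14 (2.25) and Krt5 (1.92), keratins of basal epithelium. Ptprc, the gene of the antigen sorted against, gave 3702 and 17432. Over all genes 16.5% were at least 2-fold lower and 11.5% higher. With spike-in scaling these shares were 8.01% and 45.9%. Then 8 of 13 reticular, 11 of 12 blood endothelial, 7 of 8 lymphatic and 6 of 9 pericyte and smooth muscle markers were lower. Higher were 6 of 8 myeloid, 6 of 8 epithelial and all 9 B cell genes, and again all pan-leukocyte and T cell genes. Every marker of these lists was above background on both arrays, and the part of cell makeup in the Hox differences was not tested.

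**Figure D2:**
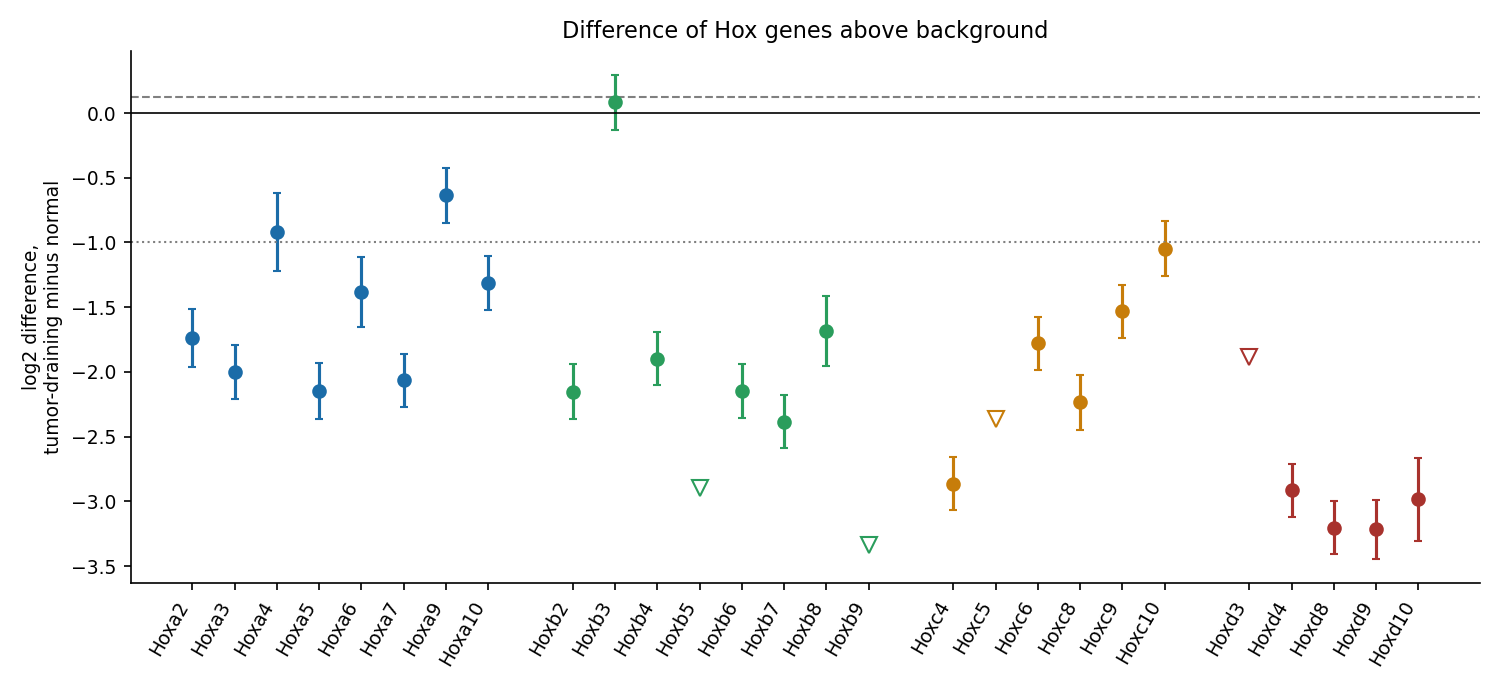
Log2 difference, tumor-draining minus normal, of 27 of the 28 Hox genes above background on at least 1 array, ordered by cluster and paralog number. Filled circles with bars are genes above background on both arrays with the software's error; open triangles are upper bounds for the 4 genes above background on the normal array only; the dotted line marks 2-fold lower and the dashed line the median of all genes (0.12). All points but Hoxb3 lie below 0. Among the filled circles those of Hoxd lie lowest, from -3.22 to -2.91, and the triangle of Hoxb9 lies at -3.34.

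Of the 12 anterior genes, 10 were above background on at least 1 array and 8 of these were at least 2-fold lower, with a median difference of -1.90 over the 9 measured on both. Hoxa2, which gives the second branchial arch its identity, gave 101 in the normal and 28.9 in the tumor-draining sample (-1.74 ± 0.22, with the software's error here and below). Hoxa3, required for thymus and parathyroid formation, gave 309 and 74.1 (-1.999 ± 0.21). These genes were 3.34-fold and 4.00-fold lower, while Hoxa4 gave 25.7 and 13.02 (-0.92 ± 0.30). Hoxb2, a hindbrain gene, gave 228 and 49.2 (-2.15 ± 0.21), and Hoxb4, known for expanding blood stem cells when forced on, gave 633 and 163 (-1.90 ± 0.20). Both differ by several times the error of a spot. Hoxc4 gave 589 and 77.6 (-2.86 ± 0.21), and Hoxd4, a gene of the boundary between hindbrain and spinal cord, gave 689 and 87.6 (-2.91 ± 0.21). The fourth paralogs therefore spread from -0.92 in Hoxa to -2.91 in Hoxd. Hoxd3 gave 31.9 on the normal array and 1.93, not well above background, on the other, which makes it at least 3.70-fold lower (-0.52 with normexp, within 2-fold). That bound sets the normal signal against the lowest signal well above background on the tumor-draining array, 8.27, or the dim probe's own signal where it was higher.

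All 11 central genes were above background on at least 1 array, and all 11 were at least 2-fold lower, with a median of -2.15 over the 9 measured on both. Hoxa5, a gene of lung and airway development, gave 144 and 31.1 (-2.15 ± 0.22). Hoxa6 (-1.38 ± 0.27), whose probe is printed above, had the smallest difference of the central genes measured on both arrays. Hoxa7 gave 1006 and 230 (-2.06 ± 0.20). Hoxb6 gave 247 and 53.4 (-2.15 ± 0.21), and its neighbor Hoxb7 gave 851 and 156 (-2.38 ± 0.20). Hoxb8, known for holding myeloid progenitors in an immature state when forced on, gave 50.8 and 15.1 (-1.69 ± 0.27). These Hoxb genes, side by side in the cluster, were 3.22-fold to 5.22-fold lower. Hoxb5 and Hoxc5 were not well above background in the tumor-draining sample: Hoxb5 gave 69.2 and 8.90, at least 7.45-fold lower, and Hoxc5 gave 44.4 and 6.57, at least 5.14-fold lower. With normexp Hoxb5 (-0.81) and Hoxc5 (-0.55) were within 2-fold, as were Hoxa6 (-0.34) and Hoxb8 (-0.54). Hoxc6, a gene of the brachial and upper thoracic level, gave 1330 and 372 (-1.78 ± 0.20). Hoxc8, which shapes ribs and lower brachial motor neurons, gave 232 and 47.2 (-2.24 ± 0.21). Hoxd8 gave 1960 and 204 (-3.20 ± 0.20), or 9.21-fold lower, the widest gap among the central genes measured on both arrays.

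The 16 posterior genes divided into 7 that were above background, all with paralog number 9 or 10, and 9 that were not. Of the 7, 6 were at least 2-fold lower, and the median over the 6 measured on both arrays was -1.42. Hoxa9, a gene of blood stem and progenitor cells and of some leukemias, gave 69.4 and 42.8 (-0.64 ± 0.21), the smallest difference among the posterior genes. Hoxa10, needed in the uterus, gave 231 and 89.2 (-1.31 ± 0.21). Hoxb9 gave 87.2 on the normal array and 8.25, not well above background, on the other, and was at least 10.1-fold lower by that bound. With normexp Hoxb9 was at -1.07. Another Hoxb9 probe (1.80 and 2.01) was not well above background on either array. Hoxc9, a determinant of thoracic motor neurons, gave 479 and 159 (-1.53 ± 0.20), and Hoxc10, a lumbar level gene, gave 82.5 and 38.2 (-1.05 ± 0.22). Hoxd9 gave 262 and 27.003 (-3.22 ± 0.23), and Hoxd10 had a difference of -2.98 ± 0.32. The ninth paralogs were 1.55-fold lower in Hoxa, 2.89-fold lower in Hoxc, 9.29-fold lower in Hoxd and, as a bound, at least 10.1-fold lower in Hoxb. Of the 8 genes listed for blood progenitors, cells known to express Hoxa9, 4 were at least 2-fold lower and 1 higher. Over all genes 16.5% were lower and 11.5% higher. With spike-in scaling 3 of the 8 were lower and 2 higher, against 8.01% and 45.9% of all genes. The summed signals of the 8 were 28758 and 9640, of which Cd34 alone gave 24205 and 4245, so the sums mostly follow that gene. Flt3 had a difference of 1.96, Mpo 0.64 and Kit -0.53. Gata2 (-1.24) and Cd34 (-2.45), Tal1 (-2.59) and Erg (-2.76), which endothelial cells also express, were lower, and the part of such cells in the Hoxa9 value was not tested.

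**Figure D3:**
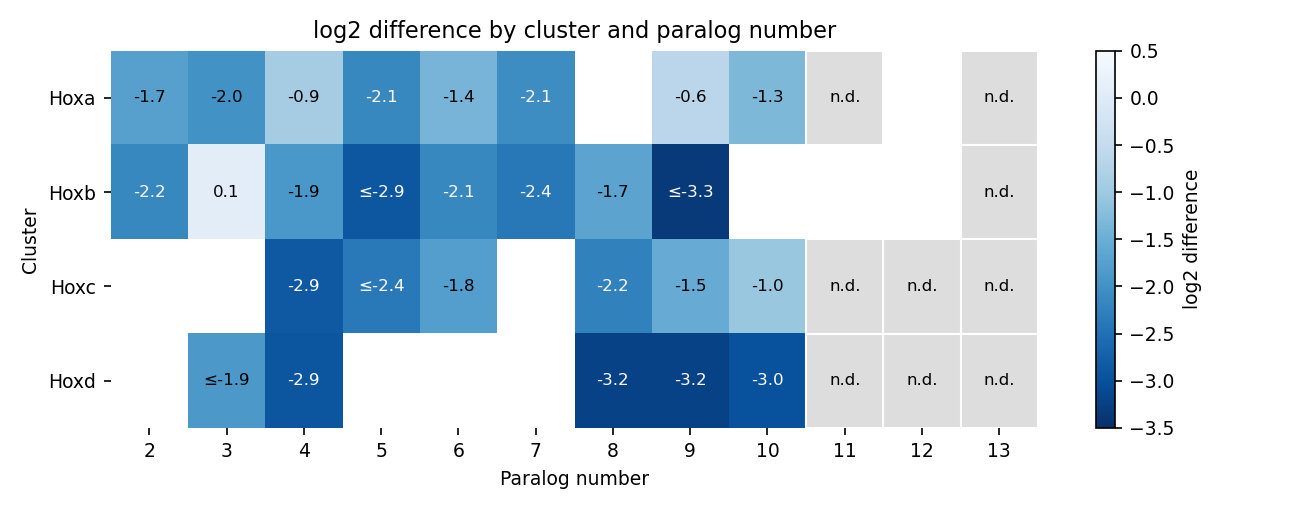
Log2 difference of the Hox genes with paralog numbers 2 to 13 (columns), with clusters as rows. Darker blue is lower on the tumor-draining array; ≤ marks an upper bound for a gene above background on the normal array only; grey cells marked n.d. were not well above background on either array, and white cells without text have no gene in the table. The grey cells lie in columns 11 to 13, and 4 of the 5 colored Hoxd cells are at -2.9 or lower.

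The clusters had different medians. The median over genes above background on both arrays was -1.62 for Hoxa (9 genes), -2.02 for Hoxb (6 genes), -1.78 for Hoxc (5 genes) and -3.09 for Hoxd (4 genes). All 4 Hoxd genes, from -3.22 to -2.91, lay below all 9 Hoxa genes, from -2.15 to -0.64. Hoxc4 (-2.86) was the Hoxc gene nearest to the Hoxd range, and Hoxb7 (-2.38) the lowest Hoxb gene measured on both. Left out here are the 4 genes above background on the normal array only. Their bounds were -3.34 for Hoxb9, -2.90 for Hoxb5, -2.36 for Hoxc5 and -1.89 for Hoxd3. Genes of a cluster share their neighborhood and samples and are not replicates, so no test was made of the difference between clusters. Hoxd also had the lowest median under each of the 10 alternative processings. Of these, spike-in scaling, which shifts every gene alike, and keeping outlier spots, since no Hox spot carried that mark, could not change the order. Nor could taking RefSeq mRNA probes alone, since such a probe already represented each Hox gene above background. With the stricter signal filter the Hoxd median rested on Hoxd4 and Hoxd8 alone. With normexp, a background correction that draws dim signals together, Hoxd10 was at -1.01, and the Hoxd and Hoxa genes overlapped, with medians of -2.05 and -0.91. They also overlapped without the background filter, where dim Hoxd genes reached 0.19. Genes that differ little also lie beside genes that differ more within a cluster, such as Hoxa4 (-0.92) between Hoxa3 (-1.999) and Hoxa5 (-2.15).

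Several genes had more than 1 probe, which gives a check within a gene. For 3 genes both probes above background on both arrays gave nearly 1 value: Hoxd8 at -3.20 and -3.13, Hoxc6 at -1.78 and -1.72, and Hoxa10 at -1.31 and -1.27. Those agreements hold although the signals of the paired probes differ, with 1960 and 352 for Hoxd8 on the normal array. Probes of Hoxb3 differed. One gave 80.4 and 16.6 (-2.21 ± 0.26). Another, for a transcript named by an Ensembl accession, at chr11:96202860-96202919 (mm9), gave 43.1 and 25.0 (-0.73 ± 0.24). The brightest Hoxb3 probe, which represents the gene under the rule used, gave 60.8 and 61.6 (0.08 ± 0.21). Its coordinates span 3008 bases of the plus strand, chr11:96202427-96205434, so it joins separate stretches of the genome as a probe across a splice junction does. The mean over the 3 Hoxb3 probes was -0.95, and loess normalization put the brightest probe at -0.06. Hoxa9 also has a probe of that kind, spanning 1105 bases, which gave 38.8 and 36.3 (-0.03 ± 0.22), against -0.64 for its brightest probe. When scaled to the spike-ins, Hoxa9 turned to 0.18. The second probe named Hoxb2 (14.7 and 9.83, a difference of -0.51 ± 0.37) lies on the minus strand while the Hoxb genes lie on the plus strand, so it reads the opposite strand and says nothing of Hoxb2 itself.

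The cofactors with which Hox proteins bind DNA differed unevenly. Of 9 TALE genes, 8 were above background on both arrays, 3 of these were at least 2-fold lower and none was higher, with a median of -0.48, beside 16.5% lower and 11.5% higher over all genes. Pknox2 gave 594 and 50.4 (-3.497), Meis2 gave 566 and 135 (-2.01) and Meis1 gave 774 and 286 (-1.38). Pbx3 had a difference of -0.92. Pbx2 (0.23), Meis3 (-0.04) and Pknox1 (0.30) were within 2-fold, so the Hox partners included both genes that were lower and genes that were not. Pbx4 was not well above background on either array. Spike-in scaling turned the TALE median to 0.34, with 2 genes at least 2-fold lower and 3 higher, where 8.01% of all genes were lower and 45.9% higher.

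Of 21 Polycomb genes, which silence the clusters, 17 were within 2-fold, 2 were at least 2-fold lower and 2 were at least 2-fold higher, with a median of 0.25. These counts are not above what the shares over all genes (16.5% lower, 11.5% higher) would give, and nothing particular to the list is read from them. The lower genes were Cbx6 (-1.82) and Pcgf2 (-1.78), and the higher genes were Jarid2 (1.29) and Mtf2 (1.21), both partners of the methyltransferase complex. Ezh2, the catalytic subunit of that complex, had a difference of -0.36, Eed one of 0.58 and Suz12 one of 0.83. Of 12 Trithorax and demethylase genes above background, 11 were within 2-fold, among them Kmt2a (0.78), which keeps Hox genes active, and Kdm6b, an H3K27 demethylase, was 2.30-fold higher, a call lost when a gene's probes were averaged. With spike-in scaling, under which 45.9% of all genes were higher, 11 of the 21 Polycomb genes and 9 of the 12 Trithorax and demethylase genes were at least 2-fold higher. Retinoic acid is known to switch on anterior Hox genes. Of 8 genes that induce Hox genes, 5 were above background and 2 were at least 2-fold lower, the retinoid receptor genes Rarg (-1.34) and Rxra (-1.48), neither of them with spike-in scaling. Rarb was at -0.95 and Rara at 0.06. Cdx1, Cdx2 and Cdx4, which activate central Hox genes in the embryo, were not well above background on either array.

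Other transcription factors that mark the position of mesenchyme were lower in part. Of 35 such genes, 27 were above background on at least 1 array, 2 of them on the normal and 3 on the tumor-draining array only, and 16 of the 27 were at least 2-fold lower and none higher, with a median of -1.77 over the 22 measured on both. Over all genes 16.5% were lower and 11.5% higher. With spike-in scaling 12 of the 27 were lower and 8 higher, against 8.01% and 45.9% of all genes. Foxf1, a factor of gut and lung mesenchyme, gave 1184 and 140 (-3.02). Prrx1, a limb and body wall factor, gave 2821 and 404 (-2.74), and Msx1 gave 1967 and 290 (-2.70). Tbx5, known for the forelimb and the heart, gave 65.2 on the normal array and 6.06, not well above background, on the other, and was at least 7.56-fold lower. Pitx1 and Tbx4, the hindlimb factors, were not well above background on either array. The highest members measured on both arrays were Msx2 (0.61) and Lmx1b (0.57), and Irx5, not well above background in the normal sample, was at least 1.58-fold higher. Of 9 homeobox genes related or linked to the Hox clusters, 5 were above background on at least 1 array and 3 were at least 2-fold lower. They were Meox2 (-3.77) and Meox1 (-2.81), genes of the somite lineage, and Gbx2, above background on the normal array only and at least 3.36-fold lower. With normexp 2 of the 5 were at least 2-fold lower and none higher, and with spike-in scaling 2 were lower and 1 higher. Evx2, which lies beside Hoxd13 at the posterior end of the cluster, gave 161 and 167 (0.12).

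**Figure D4:**
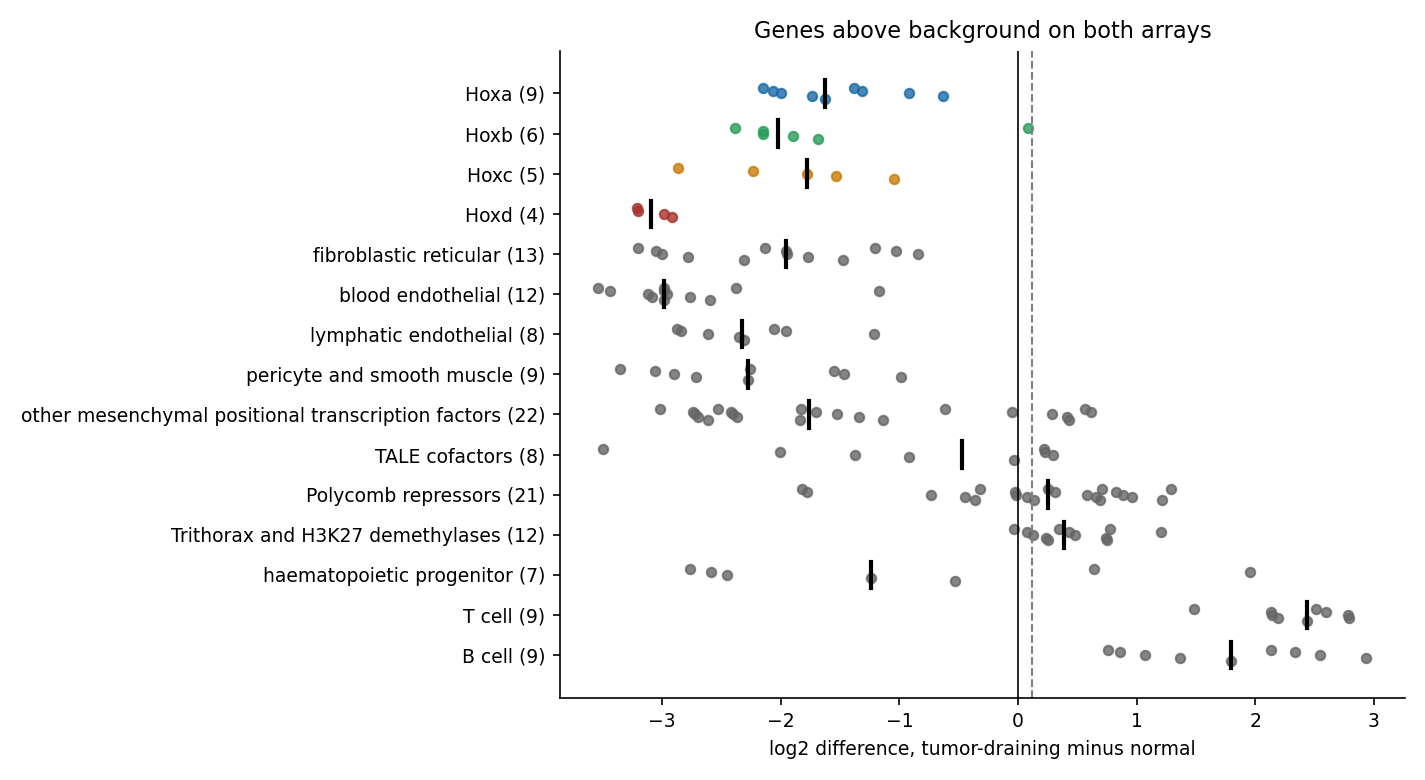
Log2 difference, tumor-draining minus normal, of genes above background on both arrays, in each Hox cluster (colored) and in lists of cell type markers, cofactors and regulators (grey), with the number of genes in parentheses. Each point is a gene, black bars are medians and the dashed line is the median of all genes (0.12). The Hoxa, Hoxb and Hoxc medians lie near that of fibroblastic reticular markers (-1.96), the Hoxd median (-3.09) lies near that of blood endothelial markers (-2.98), and Polycomb genes (0.25), T cell genes (2.43) and B cell genes (1.80) lie to the right. This nearness depends on the processing. With normexp the medians were -0.91 for Hoxa, -1.36 for Hoxb, -1.47 for Hoxc and -2.05 for Hoxd. Those of reticular and blood endothelial markers were then -1.94 and -2.56.

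The Hox differences and those of the stromal markers overlapped in range. The median was -1.96 for fibroblastic reticular markers, from Ccl19 (-3.20) to Col3a1 (-0.85), -2.33 for lymphatic endothelial markers, -2.28 for pericyte and smooth muscle markers and -2.98 for blood endothelial markers. Pdpn, the glycoprotein that marks reticular cells and lymphatic endothelium, was at -1.96, and Pecam1, an endothelial adhesion gene, at -1.17. Which of these cells carried the Hox transcripts cannot be read from bulk RNA. Scaling to spike-in RNA moved the median of all genes from 0.12 to 0.94 and the Hox median to -1.13. This scaling adds 1 constant to every difference, so the distance between these medians, -2.07, is the same by construction. Under it 17 of the 28 Hox genes were at least 2-fold lower and none higher, against 8.01% and 45.9% of all genes. With normexp 17 were lower and none higher, against 9.93% and 5.64%. With loess normalization 26 were lower and none higher, against 18.6% and 9.2% of all genes, and with a stricter signal filter all 8 genes left were lower, against 15.2% and 10.3%. Hoxa2, Hoxa6, Hoxa10, Hoxb8 and Hoxc10 were within 2-fold both with spike-in scaling and with normexp, and Hoxc6 (-0.96) and Hoxc9 (-0.71) with spike-in scaling alone.

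**Figure D5:**
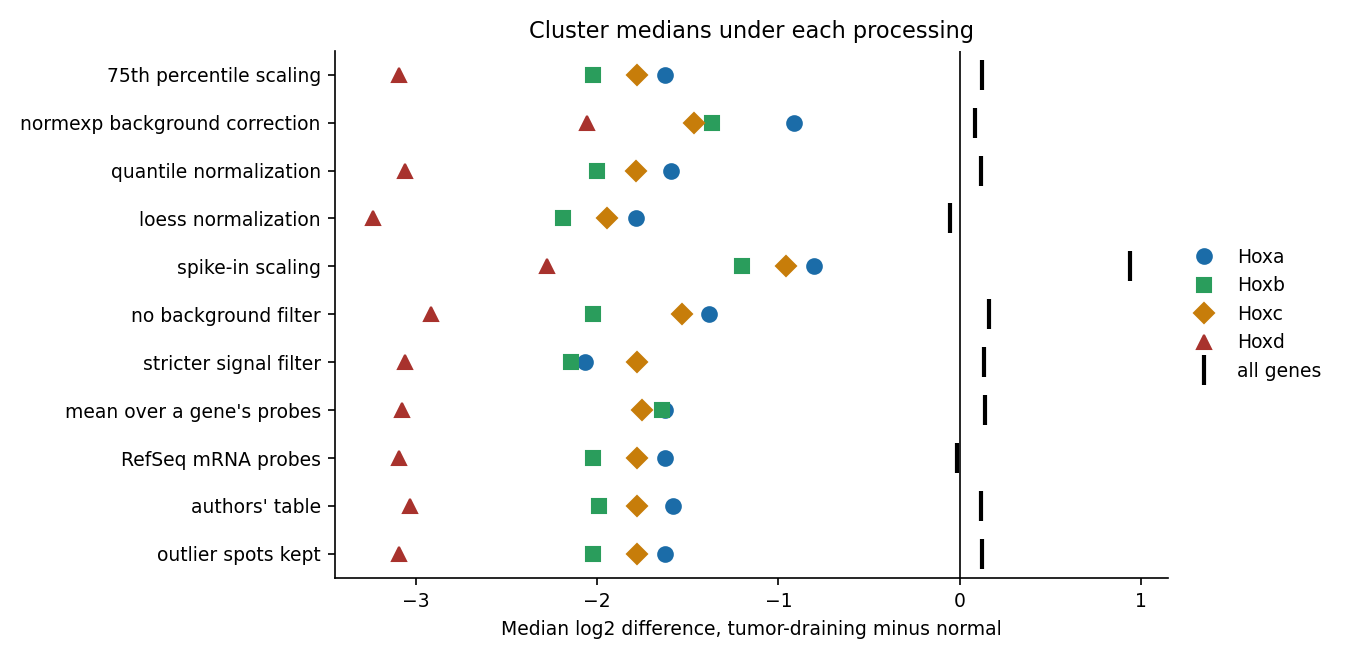
Median log2 difference of each Hox cluster (colored symbols) and of all genes above background on both arrays (black ticks) under the processing used in the text (top row) and 10 alternatives. The Hoxd triangle is leftmost in every row, between -3.23 with loess and -2.05 with normexp, and every cluster median lies left of that of all genes.

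The promoters of the Hox genes were compared as a feature that the choice of genes did not use. RefSeq promoter windows (GRCm38.p6) were matched for 22 of the 39 genes, with 24 windows in all, and the 250 bases before the start were read. The match is uneven: of the Hoxb genes it covers only Hoxb1, Hoxb4 and Hoxb8, and of the Hoxc genes only Hoxc4. The median number of CG dinucleotides was 12.5 in the Hox windows, from 2 to 35, against 6 in 32851 windows of all genes. It was 12 in the 16 windows of Hox genes above background and 16.5 in the 8 windows of Hox genes that were not, and the ranges, 3 to 28 and 2 to 35, overlapped. The motif TGATNNAT, a site form that Pbx and Hox proteins are known to bind as a pair, searched on both strands, was in 4 of the 24 windows against 7.68% of all windows. Printed here are 3 windows, 5′ to 3′ on the strand of the gene, with CG in capitals: the ninth paralogs with the greatest and the least difference among those measured on both arrays, and Hoxd13, which was not above background.
Hoxd9, chr2:74697513-74697762, plus strand: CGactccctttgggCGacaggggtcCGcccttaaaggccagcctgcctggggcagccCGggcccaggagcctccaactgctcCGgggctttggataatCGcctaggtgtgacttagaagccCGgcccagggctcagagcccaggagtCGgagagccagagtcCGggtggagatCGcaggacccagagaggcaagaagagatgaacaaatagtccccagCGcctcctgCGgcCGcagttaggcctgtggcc
Hoxa9, chr6:52227371-52227620, minus strand: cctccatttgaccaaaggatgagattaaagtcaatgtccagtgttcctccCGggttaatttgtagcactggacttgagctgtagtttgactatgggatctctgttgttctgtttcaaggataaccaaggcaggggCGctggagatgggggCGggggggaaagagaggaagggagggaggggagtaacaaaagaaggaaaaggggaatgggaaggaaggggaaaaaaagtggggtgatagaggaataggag
Hoxd13, chr2:74667975-74668224, plus strand: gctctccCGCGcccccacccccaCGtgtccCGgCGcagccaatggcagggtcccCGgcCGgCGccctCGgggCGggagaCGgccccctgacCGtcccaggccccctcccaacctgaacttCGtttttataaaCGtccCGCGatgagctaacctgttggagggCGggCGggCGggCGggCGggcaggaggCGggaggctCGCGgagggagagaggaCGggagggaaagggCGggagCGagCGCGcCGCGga
Hoxd9 (9.29-fold lower) has 13 CG dinucleotides in this window, Hoxa9 (1.55-fold lower) has 3 and Hoxd13 has 31. These counts describe the sequence alone, since neither DNA methylation nor factor binding was measured.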

How the data were processed

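Both samples' RNA carried the Cy3 dye on one-color Agilent arrays, per the labels' protocols. The deposited scanner files hold linear spot intensity values, from which Agilent Feature Extraction had subtracted background (release 12.0.3.1, per the file headers, where the notes of the submitters on processing give 10.7). The authors' deposited table holds log2 values whose scale and steps are not given in the sources used here. Its columns correlated with the log2 signals of the same arrays (r = 0.9999 in each) and had medians of 4.85 and 4.86, so it is not centered by gene, and it served as an alternative. The deposited spot flags (other values, 0 or 1, set by the software) gave detection: a probe counted as above background if 50% or more of its spots carried the mark. The log2 signal was reduced by each array's 75th percentile over 59305 non-control spots (374 and 358), spots with outlier marks were left out, and of a gene's probes the one with the highest mean log2 signal stood for the gene. No non-control spot was saturated. Groups came from the labels, and no test was run. All Hox members were named by rule, and of the lists genes past 2-fold, not all of them, and the 2 highest or 2 lowest. Pbx3, Meis3, Ezh2, Eed, Suz12, Rarb and Kit, and the dim genes Pbx4, Pitx1, Tbx4, Cdx1, Cdx2 and Cdx4, fall outside this and were chosen after their values were seen. The members and lists were chosen with earlier results of these data known. Of 52 Hox probes, 46 had a RefSeq accession in the gene table used and none contradicted its name. The gene summary was tested on simulated data. Some results for single genes are not reported here, and counts and medians include them. Alternatives were normexp (offset 50), quantile normalization, loess (span 0.3), the median of 6 spike-in probes under 60000, no background filter, a filter at a mean signal of 162, the mean over probes, RefSeq mRNA probes, the authors' table and keeping outlier spots. Python 3.11.15 with statsmodels 0.14.6 and R 4.3.3 with limma 3.58.1 were used. Windows on opposite strands that overlap (213) were all reverse complements, as a check of promoter orientation.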

Additional observations from a re-analysis of the deposited data

How the results depend on the processing

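The median Hox difference stayed below 0 under all 10 alternatives, as did every cluster and paralog group median, and no Hox gene was at least 2-fold higher under any. Keeping outlier spots could not change a Hox value, since no Hox spot carried an outlier mark. Taking RefSeq mRNA probes alone could not change a Hox value measured on both arrays, since such a probe already represented each of these genes. The number at least 2-fold lower was 24 in the authors' table (without Hoxc10), 25 or 26 with quantile, loess, no background filter, the mean over probes, RefSeq mRNA probes and outlier spots kept, 17 with normexp and 17 with spike-in scaling. It was 8 of 8 with the stricter signal filter, which leaves fewer genes and kept no value for the other 20 members. That filter gave a median of -2.22 over all and -2.06 for Hoxa, where only Hoxa7 was left. It gave -2.86 for paralogs 1 to 4, from Hoxb4, Hoxc4 and Hoxd4, and -3.06 for Hoxd, from Hoxd4 and Hoxd8. With normexp the median was -1.31 over all, -0.91 for Hoxa, -1.36 for Hoxb, -1.47 for Hoxc, -2.05 for Hoxd, -1.38 for paralogs 1 to 4, -1.47 for 5 to 8 and -0.96 for 9 to 13; its offset compresses dim signals by construction. Spike-in scaling, which adds 0.82 to each difference by construction, gave -1.13 over all, -0.80 for Hoxa, -1.20 for Hoxb, -0.96 for Hoxc, -2.27 for Hoxd, -1.08 for paralogs 1 to 4, -1.33 for 5 to 8 and -0.60 for 9 to 13. Without the background filter paralogs 9 to 13 were at -0.79, since the 9 dim genes enter, and the mean over probes, which for Hoxb2 (-1.33) takes in the probe on the minus strand, put Hoxb at -1.64. No paired analysis was possible because each group has 1 array. What limits depth here is signal over background: the 11 Hox genes not above background have no measured difference.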

Other observations

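Other transcripts read by the array inside the Hox clusters were in part lower on the tumor-draining array. Between the outermost Hox probes of each cluster (mm9) lie 34 other probes, a set defined by position after the Hox values had been seen. Of these, 19 were above background on both arrays, 3 on the normal array only and 12 on neither. Of the 19, 10 were at least 2-fold lower, none was higher and 9 were within 2-fold, with a median of -1.18. Over all 34042 probes above background on both arrays, 14.8% were lower and 12.4% higher. The clusters differed, with a median of -1.20 and 5 of 7 lower in Hoxa, 0.05 and 3 of 7 in Hoxb, and -1.81 and 2 of 4 in Hoxd. Mira, a noncoding RNA between Hoxa6 and Hoxa7, gave 925 in the normal and 227 in the tumor-draining sample (-1.97), beside -2.06 for Hoxa7. Gm38462, on the strand opposite to the Hoxd genes, gave 308 and 29.7 (-3.31), beside -3.20 for Hoxd8 and -3.22 for Hoxd9. Hoxaas2 (-1.47) and the Hoxaas3 probe on the strand opposite to the Hoxa genes (-1.18) lay in the range of the Hoxa genes. A second probe named Hoxaas3 (-1.71) lies on the strand of the Hoxa genes, so it cannot be assigned to that antisense RNA.

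Some cluster transcripts did not share the difference of their neighbors. Haglr, a noncoding RNA of the Hoxd cluster, gave 85.3 and 73.0 (-0.16), while its neighbor Hoxd3 gave 31.9 and 1.93. The probes of Hoxb5os went opposite ways, with 267 and 448 (0.81) for one and 31.5 and 2.01, not well above background on the second array, for the other. In the long interval between Hoxb13 and Hoxb9, a probe on the strand opposite to the Hoxb genes gave 280 and 59.8 (-2.17). Its neighbor on the Hoxb strand gave 73.5 and 109 (0.63). Of the 7 listed noncoding RNAs of the clusters that were on the array, 6 were above background and 3 were at least 2-fold lower, 1 of them Hoxaas3 by the probe on the strand of the Hoxa genes. With normexp none was lower, and with spike-in scaling 1 was lower and 2 were higher. Over all genes 16.5% were lower, or 9.93% with normexp and 8.01% with spike-in scaling. Hottip, at the posterior end of the Hoxa cluster, gave 12.2 and 19.6 (0.74), close to background. A probe named HOTAIR, in the Hoxc cluster, was not well above background on either array. Each of these values rests on 1 spot per array.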
